A study of Homo sapiens with 6 samples.

Results

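The ID genes (ID1, ID2, ID3 and ID4) and the genes of their E protein partners (TCF3, TCF4 and TCF12) were examined in RNA-seq read counts of J82, a line derived from a human bladder carcinoma. These 7 members, of 57820 genes counted, were listed by symbol. They were selected on their control and FOXC1 KO values, since the ID genes were already known to be lower in KO, so their levels are given as a description with no test. The series held 6 libraries of J82 cells grown in DMEM with serum, 3 labelled control (genotype control, vector control cells per the study's methods) and 3 labelled FOXC1 KO (lentiviral CRISPR/Cas9 knockout of FOXC1 with lentiCRISPRv2, followed by puromycin selection). FOXC1 encodes a forkhead transcription factor. The sources used here did not say whether the 3 libraries of a group came from separate cultures or from separate clones, so p-values measure only the spread between these libraries, which may be technical.

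Basic helix-loop-helix (bHLH) transcription factors bind DNA as dimers. The helix-loop-helix segment pairs the proteins and the basic segment beside it contacts a short DNA element called an E-box. TCF3, TCF4 and TCF12 encode the E proteins, which are made in many tissues and pair with tissue-restricted bHLH factors or with themselves. ID proteins have the pairing segment but no basic segment, so a dimer of an ID protein with an E protein does not bind DNA. ID1, ID2 and ID3 are known as early target genes of BMP signalling, in which a BMP ligand activates serine/threonine kinase receptors that phosphorylate SMAD1, SMAD5 and SMAD9. ID proteins are known for delaying differentiation and for keeping progenitor and tumour cells dividing.

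The ID promoters are shown because they precede the RefSeq starts of genes measured here, and because the factor targeted in these cells binds DNA. Each line gives the 250 bases before the RefSeq transcription start (RefSeq table of GRCh38.p14, located by an exact match in GRCh37, the assembly of the files), 5′ to 3′ on the strand of the gene. All 4 ID promoters matched GRCh37 once, at chr20:30192842-30193091 (plus strand) for ID1, chr2:8821936-8822185 (plus strand) for ID2, chr1:23885993-23886242 (minus strand) for ID3 and chr6:19837351-19837600 (plus strand) for ID4. Capitals mark every match, on either strand, to one of 7 searched words: TGTTTA (the core of many forkhead elements), TATAAA (the TATA box), GGCGCC and CAGAC (elements bound by SMAD proteins), CAGCTG and CACCTG (E-boxes) and CCAAT.
ID1: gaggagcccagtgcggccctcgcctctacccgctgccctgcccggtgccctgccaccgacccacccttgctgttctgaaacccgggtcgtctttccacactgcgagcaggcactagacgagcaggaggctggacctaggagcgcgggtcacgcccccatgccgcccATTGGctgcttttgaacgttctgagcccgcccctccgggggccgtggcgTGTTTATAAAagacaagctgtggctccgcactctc
ID2: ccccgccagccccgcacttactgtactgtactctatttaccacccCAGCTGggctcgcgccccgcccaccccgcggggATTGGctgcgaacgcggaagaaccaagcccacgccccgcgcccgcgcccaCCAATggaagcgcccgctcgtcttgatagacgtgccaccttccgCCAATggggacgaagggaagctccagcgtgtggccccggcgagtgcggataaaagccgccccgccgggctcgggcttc
ID3: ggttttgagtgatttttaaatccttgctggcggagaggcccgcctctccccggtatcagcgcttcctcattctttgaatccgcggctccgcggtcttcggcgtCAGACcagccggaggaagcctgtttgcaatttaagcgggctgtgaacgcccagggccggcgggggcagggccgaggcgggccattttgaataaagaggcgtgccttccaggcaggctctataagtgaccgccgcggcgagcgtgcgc
ID4: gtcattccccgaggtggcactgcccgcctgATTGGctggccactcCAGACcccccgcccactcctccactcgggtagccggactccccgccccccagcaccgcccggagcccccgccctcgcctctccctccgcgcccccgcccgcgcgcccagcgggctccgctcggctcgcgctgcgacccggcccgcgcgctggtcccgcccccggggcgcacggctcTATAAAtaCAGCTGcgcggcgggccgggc

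Of the 4 ID promoters, ID1 alone held TGTTTA, from 35 to 30 bases before the start, where the letters overlap TATAAA matches on both strands between 33 and 26 bases before the start. TGTTTA was present in 11.0% and TATAAA in 10.7% of 35116 promoters of the same length. The ID1 promoter also held 1 CCAAT on the minus strand, a word found in 32.0% of promoters. The ID2 promoter held 3 CCAAT words and 1 CAGCTG (14.0% of promoters). The ID2 stretch lies inside the annotated span of the gene (chr2:8818975-8824591), which begins farther upstream than the RefSeq start. The ID3 promoter held only CAGAC (38.0% of promoters). The ID4 promoter held TATAAA from 29 to 24 bases before the start, as well as CAGAC and, nearer the start, CAGCTG, and CCAAT on the minus strand farther away. GGCGCC (16.4% of promoters) and CACCTG (17.5% of promoters) were in none of the 4. GC content was 66.0% for ID1, 69.2% for ID2, 62.0% for ID3 and 78.8% for ID4, against a median of 58% over all promoters. ID1 and ID3, the members with the most similar values below, shared none of the 7 words. TGTTTA was the only forkhead word searched, so forkhead elements with other letters were not counted in any of the promoters. A match describes letters, not binding.

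**Figure D1:**
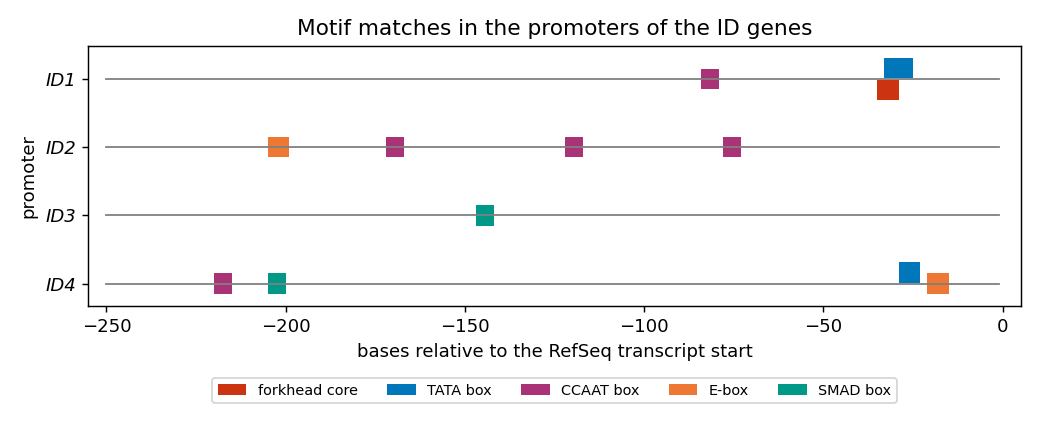
Matches to the searched words in the 250 bases before the RefSeq start of each ID gene (horizontal axis, bases from the start), colored by kind of element. The forkhead core word TGTTTA appears in the ID1 row only, where it overlaps the TATA box. Forkhead elements with other letters were not searched.

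FOXC1 itself, the targeted gene (ENSG00000054598.5, chr6:1610150-1614132, plus strand), was at 18.4, 16.9 and 19.3 CPM (read counts scaled to the library total times its TMM factor) in control and at 24.1, 22.2 and 21.1 CPM in KO. Its RNA was therefore higher, not lower, in the libraries labelled KO (log2 fold change 0.30, SE 0.091, edgeR quasi-likelihood adjusted p = 0.0127). Its 1.24-fold difference was under the fold threshold of 1.3. The adjusted p was above 0.05 without control replicate 2 (edgeR adjusted p = 0.0827) or without KO replicate 1 (0.0784). The log2 fold change of FOXC1 was 0.25 in each of these fits. Per the labels, the knockout had been checked at the protein level by western blot. RNA level does not show whether a coding change is present, so the read counts do not bear on that check. Library totals ranged from 22900531 to 25013311 counts in control and from 18408134 to 25350908 in KO. Of 15647 genes that passed the filter on low counts, 8.39% were called lower and 7.57% higher in KO, where a call needs an adjusted p under 0.05 and a fold over 1.3. The control and KO values did not overlap, with KO lower, for 20.8% of tested genes, and with KO higher for 20.5%.

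Of 11 epithelial marker genes fixed for the J82 label, 7 were tested and 6 fell, among them KRT8 (log2 fold change -0.60), KRT19 (-0.70) and EPCAM (-0.86). KRT7 was at -0.065 and was not called. The summed epithelial level was 3178 to 4000 CPM in control and 2487 to 2764 CPM in KO. The defining epithelial gene CDH1 had 0 to 3 counts in any library, KRT5 0 to 1 and UPK2 2 to 5. Of the mesenchymal markers, 6 were tested, 0 fell and 2 rose (ZEB1 0.57, SNAI2 0.61), and their summed level was 1805 to 1941 CPM in control and 1861 to 2133 CPM in KO. Of 9 blood and endothelial markers, 3 were tested and 2 rose (CD14 and CDH5), with a summed level of 4.01 to 4.50 CPM in control and 6.50 to 7.93 CPM in KO, while LYZ stayed at 0 to 1 counts. Their part in the ID results was not tested. In bulk RNA, fewer cells of a type and less RNA per cell cannot be told apart.

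ID1, ID2 and ID3 were each about 4.5-fold lower in the libraries labelled KO, whereas TCF3 and TCF12 differed by less than 5%. ID4 was near the floor of detection. TCF4 was 1.32-fold lower. Of the 7 members, 6 passed the filter on low counts, 4 met the call rule on the lower side (against the 8.39% of all tested genes given above) and 0 on the higher side. The control and KO values did not overlap, with KO lower, for the same 4 of the 7, beside 20.8% of all tested genes. These counts come from the contrast on which the members were selected and carry no test. At the fold threshold of 1.3, TCF4 lay just inside, and TCF12, at 1.04-fold lower, was the nearest tested member outside.

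ID1 encodes the ID protein first named as an inhibitor of DNA binding (ENSG00000125968.7, chr20:30193086-30194318, plus strand). It had 1489, 1502 and 1432 reads in control and 227, 346 and 333 in KO. Scaled to library size, these were 66.4, 61.5 and 56.3 CPM in control and 12.3, 13.7 and 14.1 CPM in KO. Every KO library was below every control library, and the gap between the groups was several times the range within either. The mean went from 61.4 ± 5.04 CPM (SD, n = 3) to 13.4 ± 0.947 CPM (SD, n = 3), which is 4.58-fold lower (KO minus control -2.19 on the log2 scale, SE 0.090).

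ID3 (ENSG00000117318.8, chr1:23884417-23885992, minus strand) encodes an ID protein that pairs with E proteins as ID1 does. It had 1068, 1156 and 1030 reads in control against 158, 275 and 251 in KO. The values were 47.6, 47.3 and 40.5 CPM in control and 8.58, 10.9 and 10.7 CPM in KO. The groups did not overlap, and KO replicate 1 was the lowest library, as for ID1. The mean went from 45.1 ± 4.04 CPM (SD, n = 3) to 10.05 ± 1.27 CPM (SD, n = 3), which is 4.49-fold lower (-2.16 on the log2 scale, SE 0.10). The ratio of ID1 reads to ID3 reads was 1.39, 1.299 and 1.39 in control and 1.44, 1.26 and 1.33 in KO, so the range of that ratio in control lay inside its range in KO.

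ID2 (ENSG00000115738.5, chr2:8818975-8824591, plus strand) encodes an ID protein also known for binding the retinoblastoma protein. It was low in J82, with 25, 19 and 33 reads in control and 3, 5 and 8 in KO. These corresponded to 1.11, 0.778 and 1.297 CPM in control and 0.163, 0.198 and 0.340 CPM in KO, and the groups did not overlap. The mean went from 1.06 ± 0.263 CPM (SD, n = 3) to 0.234 ± 0.0936 CPM (SD, n = 3), which is 4.55-fold lower (-2.14 on the log2 scale, SE 0.37). The fold was close to that of ID1 and ID3 but rested on far fewer reads, as its larger SE shows. Without KO replicate 3 the log2 fold change of ID2 was -2.51, and over all alternatives it lay between -2.51 and -1.96.

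ID4 (ENSG00000172201.6, chr6:19837601-19842428, plus strand), the ID gene best known from the developing nervous system, had 7, 6 and 7 reads in control and 2, 5 and 6 in KO. It did not pass the filter on low counts. The values were 0.312, 0.246 and 0.275 CPM in control and 0.109, 0.198 and 0.255 CPM in KO, and the groups overlapped. No library held more than 7 of its reads, so a difference of the size seen in ID1 to ID3 could not be judged at this depth.

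**Figure D2:**
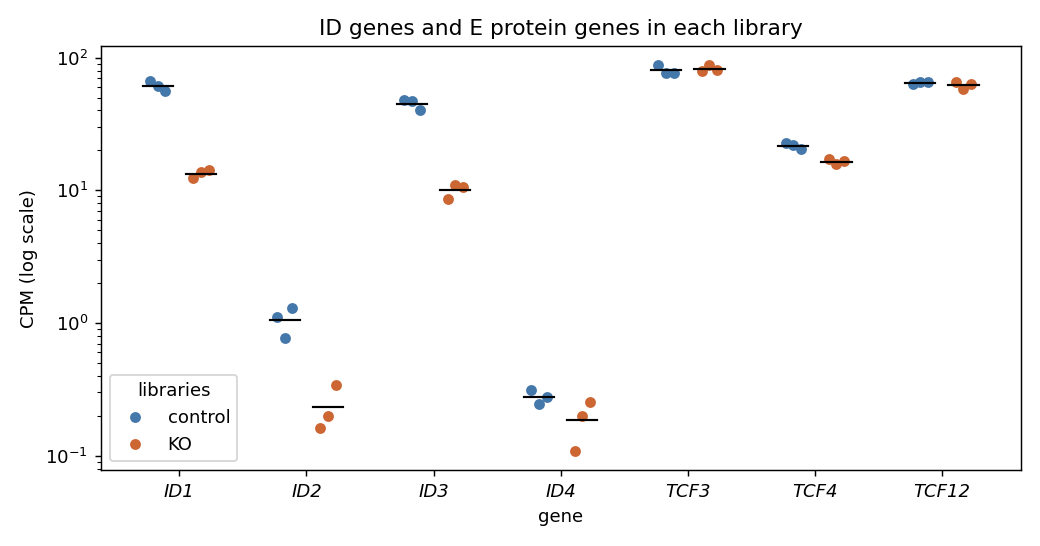
CPM (log axis) of each of the 7 members in the 3 control and 3 KO libraries, 1 point per library with the group mean as a line. For ID1, ID2, ID3 and TCF4 all 3 KO points lie below the control points, and for ID4, TCF3 and TCF12 the groups overlap.

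The E protein genes were a contrast. TCF3 (ENSG00000071564.10, chr19:1609290-1652614, minus strand), which encodes E12 and E47, was at 87.8, 76.5 and 77.1 CPM in control and 79.5, 87.7 and 81.2 CPM in KO. The groups overlapped, with a mean of 80.5 ± 6.33 CPM in control and 82.8 ± 4.30 CPM in KO (SD, n = 3 each), or 0.043 on the log2 scale (SE 0.076). TCF12 (ENSG00000140262.13, chr15:57210821-57591479, plus strand), which encodes the E protein HEB, was at 63.4, 66.1 and 65.3 CPM in control and 65.2, 58.3 and 63.5 CPM in KO. Its groups overlapped as well, with a log2 fold change of -0.061 (SE 0.074).

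TCF4 (ENSG00000196628.9, chr18:52889416-53332018, minus strand), which encodes the E protein E2-2, was at 22.6, 21.9 and 20.6 CPM in control and 17.2, 15.7 and 16.5 CPM in KO. The groups did not overlap. The mean went from 21.7 ± 1.01 to 16.5 ± 0.717 CPM (SD, n = 3 each), or -0.40 on the log2 scale (SE 0.090). This difference was near the fold threshold, and TCF4 no longer passed it without control replicate 1 (log2 fold change -0.38) or without KO replicate 2 (-0.37).

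To compare levels between genes, CPM was divided by the length of the merged annotated exons, as CPM per kilobase. ID1 had the highest control level per kilobase (49.8 ± 4.09, SD, n = 3), followed by ID3 (30.2 ± 2.70), TCF3 (12.6), TCF12 (6.88), TCF4 (0.744), ID2 (0.480) and ID4 (0.072). In KO, TCF3 (13.0) was highest, then ID1 (10.87 ± 0.768), ID3 (6.72 ± 0.852) and TCF12 (6.60), and ID3 and TCF12 did not differ beyond their spread. The lower neighbours TCF4 (0.565), ID2 (0.106) and ID4 (0.048) kept their order. The low value of TCF4 depends on length, since 93 annotated transcripts give 29166 merged exon bases, while its longest transcript has 8343 bases. Over the longest transcripts, TCF4 was at 2.60 in control and 1.98 in KO, still above ID2 (0.521 and 0.114). On that scale ID1 (49.8 ± 4.09) and ID3 (47.5 ± 4.25, SD, n = 3) did not differ beyond their spread in control, nor did ID1 (10.87), ID3 (10.6) and TCF12 (10.2) in KO.

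The summed level of the 4 ID genes was 86.2, 81.9 and 73.4 CPM per kilobase in control and 15.8, 18.6 and 18.8 in KO, 4.54-fold lower. That of the 3 E protein genes was 21.3, 19.8 and 19.7 in control and 19.97, 20.5 and 20.04 in KO, with overlapping groups. Per kilobase, ID RNA therefore exceeded E protein RNA in every control library and was below it in every KO library. This crossing depends on the division by length. In CPM the ID sum was 98.3 to 115 in control and 21.2 to 25.4 in KO. The E protein sum was higher in both groups, at 163 to 174 CPM in control and 161 to 162 CPM in KO. The ratio of summed ID to summed E protein level was 4.05, 4.14 and 3.72 in control and 0.793, 0.906 and 0.939 in KO, a mean of 3.97 ± 0.224 against 0.879 ± 0.077 (SD, n = 3 each). Using the longest transcript of each gene in place of merged exons, the ratio was 3.24 ± 0.190 in control and 0.729 ± 0.070 in KO. ID1 made up 61.8% of the summed ID level in control and 61.4% in KO, and ID3 37.5% and 37.8%. These are RNA levels, and the proteins and their dimers were not measured.

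**Figure D3:**
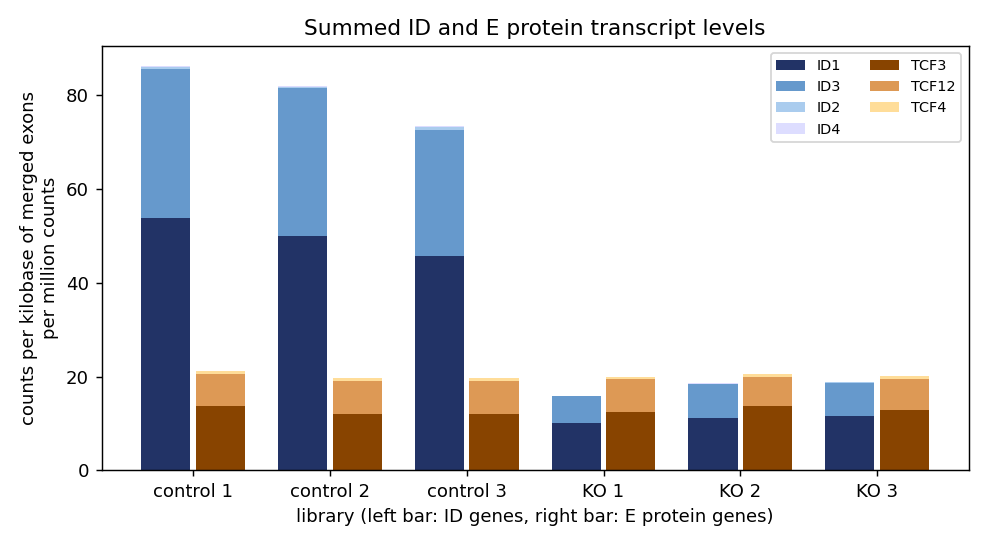
Stacked level per length (CPM per kilobase of merged exons) in each library, with the ID genes in the left bar and the E protein genes in the right bar. The ID bar is the taller in the 3 control libraries (73.4 to 86.2) and the shorter in the 3 KO libraries (15.8 to 18.8).

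The genes whose values across the 6 libraries were most like those of ID1 were found by the root mean square distance of log2 CPM values centred on each gene's mean, over 13615 genes whose mean reached 1 CPM. This distance keeps the difference between control and KO on which the members were selected. Genes with a log2 fold change like that of ID1 therefore rank near it, and the ranking carries no test. The nearest to ID1 was ID3 (distance 0.0645), followed by ABCB1 (0.0951) and DERL3 (0.126). The nearest to ID3 was ID1 (0.0645), then DERL3 (0.138) and ABCB1 (0.138). ABCB1, which encodes the drug efflux pump P-glycoprotein, had a log2 fold change of -2.09, and DERL3, which encodes an endoplasmic reticulum degradation protein, one of -2.16. ID2 and ID4 were under the 1 CPM minimum and had no such comparison.

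Overlapping annotated genes could affect the counts of a member, because the counting of strand was not given in the sources used here. Whether reads in an overlap were shared or left out is therefore not known. On the opposite strand to ID2, ID2-AS1 had 2, 2 and 1 reads in control and 0, 0 and 0 in KO. Opposite ID4, LNC-LBCS had 7, 11 and 8 reads in control and 4, 4 and 7 in KO, a number of reads like that of ID4 itself. Across part of TCF4, ENSG00000267284 on the opposite strand had 25, 24 and 22 reads in control and 10, 16 and 16 in KO (log2 fold change -0.65, edgeR adjusted p = 0.0822). No annotated gene overlapped ID1 or ID3.

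The nearest tested protein-coding genes on each side of the members were compared with the members. Of 14 such neighbours, 3 were called lower and 0 higher, beside 8.39% lower and 7.57% higher of all tested genes. The neighbours had a median log2 fold change of -0.15 (-0.00084 over all tested genes) and a range of -0.90 to 0.25. Beside ID1, HM13 (27.4 kb away) was at 0.19 and BCL2L1, an inhibitor of apoptosis (57.9 kb away), at -0.13. Neither approached the change of ID1. Beside ID3, E2F2, a cell cycle transcription factor gene 26.7 kb away, fell (log2 fold change -0.54, SE 0.16, edgeR adjusted p = 0.0111), while RPL11 on the other side was at -0.048. The control and KO values of E2F2 overlapped. The call of E2F2 was lost with DESeq2 (adjusted p = 0.0594) and without KO replicate 3 (edgeR adjusted p = 0.0696). For ID2, KIDINS220 (36.6 kb away) was at -0.21 and RNF144A (1611 kb away) at -0.17, under the fold threshold. The other neighbours that fell were CCDC68, 263 kb from TCF4 (-0.90, SE 0.10, edgeR adjusted p = 6.59e-08) and CGNL1, 76.7 kb from TCF12 (-0.58, SE 0.10, adjusted p = 7.39e-05). On the other side of TCF4, TXNL1 was at -0.21 (edgeR adjusted p = 0.0273), under the fold threshold, and its groups did not overlap. Listed genes farther away on chromosome 18 were also below zero and not called: SMAD2 (-0.26), SMAD4 (-0.18), SMAD7 (-0.32) and CDH2 (-0.11). Whether the difference in TCF4 was part of one in its region was not tested.

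RNA of BMP pathway genes was read from lists of ligands and receptors, of SMADs and brakes, and of other BMP target genes. Whether BMP signalling had a part in the ID results was not tested. Of 18 BMP ligand and receptor genes, 10 were tested, 1 fell and 1 rose, with a median log2 fold change of 0.035 against -0.00084 over all tested genes. The ligand BMP4 fell, from 29.3, 30.6 and 32.9 CPM in control to 11.4, 9.99 and 11.2 CPM in KO (log2 fold change -1.52, SE 0.094, edgeR adjusted p = 2.48e-13). All 3 KO libraries were below all 3 control libraries. The coreceptor gene RGMB rose (0.75, adjusted p = 1.16e-09). The receptor genes BMPR1A (0.081), BMPR2 (0.041) and ACVR1 (0.14) were not called.

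Of 17 SMAD and BMP brake genes, 14 were tested, 2 fell and 2 rose, with a median of 0.028. SMAD6, which encodes an inhibitory SMAD and is itself a BMP target, fell from 17.9, 16.2 and 18.4 CPM in control to 8.15, 7.49 and 7.90 CPM in KO (log2 fold change -1.16, SE 0.10, adjusted p = 5.02e-10). All 3 KO libraries were below all 3 control libraries for SMAD6. FST, which encodes follistatin, a secreted binder of activins and BMPs, rose from 7.22, 6.22 and 7.03 CPM to 14.8, 13.6 and 14.4 CPM (1.06, adjusted p = 6.10e-09), and SMURF2, a ubiquitin ligase for SMADs, rose (0.43, adjusted p = 6.26e-05). Without control replicate 1, SMURF2 was at 0.35, under the fold threshold. The signal carriers SMAD1 (0.26, adjusted p = 0.0733), SMAD5 (0.38, under the fold threshold, adjusted p = 0.000168) and SMAD9 (-0.29) were not called.

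Of 10 other BMP target genes, 9 were tested, 2 fell and 0 rose, with a median of -0.17 and 6 of the 9 below zero. Of all 15647 tested genes, 8.39% were called lower, 7.57% were called higher and 7843 lay below zero. SMAD6, SMAD7, SMAD9, BAMBI and NOG were also in the list of SMADs and brakes, so the 2 lists are not separate. The target genes that fell were SMAD6, again, and ATOH8, a bHLH gene. ATOH8 went from 4.28, 4.79 and 3.18 CPM to 2.23, 1.98 and 2.34 CPM (-0.90, SE 0.17, edgeR adjusted p = 0.000185). SMAD7 was at -0.32 (adjusted p = 0.0340, under the fold threshold) and BAMBI, which encodes a decoy receptor, at -0.17. Of these other targets, none had a difference as large as that of ID1, ID2 or ID3.

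**Figure D4:**
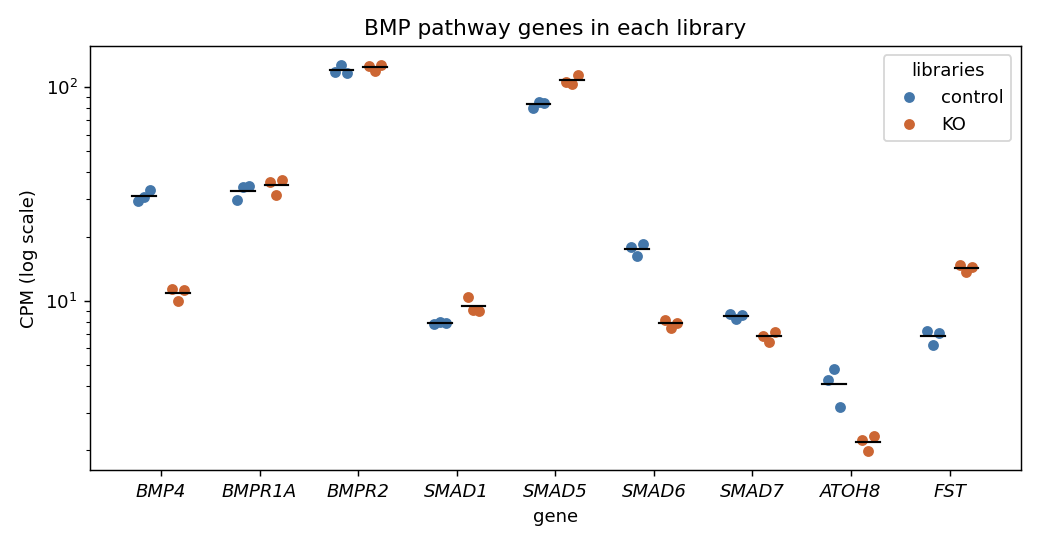
CPM (log axis) of 9 BMP pathway genes in each control and KO library, 1 point per library with the group mean as a line. BMP4, SMAD6, SMAD7 and ATOH8 lie lower in all 3 KO libraries. SMAD1, SMAD5 and FST lie higher, and the receptor genes BMPR1A and BMPR2 overlap. The genes shown are a choice from the lists. RGMB, which rose, is not plotted. Nor are the target genes MSX1, MSX2 and NOG (above zero, not called) or SMAD9, BAMBI and DLX5 (below zero, not called).

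The TGF-beta branch, which signals through SMAD2 and SMAD3, did not move in 1 direction. Of its 11 genes, all 11 were tested, 1 fell and 3 rose, with a median of 0.13. SMAD3 fell (126, 125 and 130 CPM in control, 92.2, 92.8 and 88.6 CPM in KO, log2 fold change -0.48, adjusted p = 3.69e-06). Among those that rose were the ligand TGFB2 (0.72, adjusted p = 5.50e-09) and the receptor TGFBR1 (0.47, adjusted p = 0.000165). TGFBR1 was at 0.36, under the fold threshold, without control replicate 1.

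Other bHLH genes encode possible partners and relatives of the ID and E proteins. Of 42 tissue-restricted class II bHLH genes, 5 were tested, 1 fell (ATOH8, above) and 0 rose, and TWIST1 was at 0.032 with overlapping groups. Of 13 HES, HEY and BHLHE repressor genes, 7 were tested, 2 fell and 1 rose, with a median of -0.31. HES7 rose (1.15, adjusted p = 9.52e-05) and BHLHE41 fell (-0.44, adjusted p = 0.00157). HES1, a Notch target, fell (-0.47, adjusted p = 0.0332), but its call was lost with DESeq2 (adjusted p = 0.174), with no filter on low counts (edgeR adjusted p = 0.0541) and without control replicate 2 or 3 or any 1 of the KO replicates (edgeR adjusted p from 0.0582 to 0.209).

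Of 23 bHLH leucine zipper genes, 21 were tested, 2 fell (MNT -0.53, adjusted p = 9.76e-06, and MXI1 -0.38, adjusted p = 0.00173, both of which encode partners of MAX that oppose MYC) and 2 rose, MYC itself (0.74, adjusted p = 5.36e-09) and MLXIP (0.39, adjusted p = 0.000921). MXI1 and MLXIP lay near the fold threshold. MXI1 no longer passed it without control replicate 3 or without KO replicate 2 (-0.33 in each case) or with DESeq2 (-0.38), nor MLXIP with the filter at a mean of 50 counts (0.38), without control replicate 2 or KO replicate 1 (0.37 each) or without control replicate 3 or KO replicate 2 (0.34 each). Of 19 bHLH PAS genes, 17 were tested, 0 fell and 1 rose, ARNT2 (1.304, adjusted p = 5.49e-08).

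Among the genes of CDK inhibitors, which hold the cell cycle, CDKN1A is a known target of E proteins. Of 7 such genes, all 7 were tested, 0 fell and 1 rose, CDKN1C (0.77, adjusted p = 0.000147), which encodes p57. CDKN1A, which encodes p21, was at 0.019 with overlapping groups, and CDKN1B, which encodes p27, at -0.37 (adjusted p = 0.00194), under the fold threshold. Of 5 genes for turnover of ID proteins, 0 fell and 1 rose, SMURF2 as above, with a median of 0.29. USP1, a deubiquitinase for ID proteins, was at 0.33 (edgeR adjusted p = 0.000619), under the fold threshold. WDR48 (0.23, adjusted p = 0.0229) and FZR1 (0.29, adjusted p = 0.0136) were also under it. COPS5 was at -0.053 with overlapping groups. For 4 of the 5, every KO value was above every control value, beside 20.5% of all tested genes. Together, the pathway lists held 158 genes, of which 99 were tested, 9 fell (9.09%) and 11 rose (11.1%), with a median of 0.021. These shares lay near the 8.39% and 7.57% over all tested genes.

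**Figure D5:**
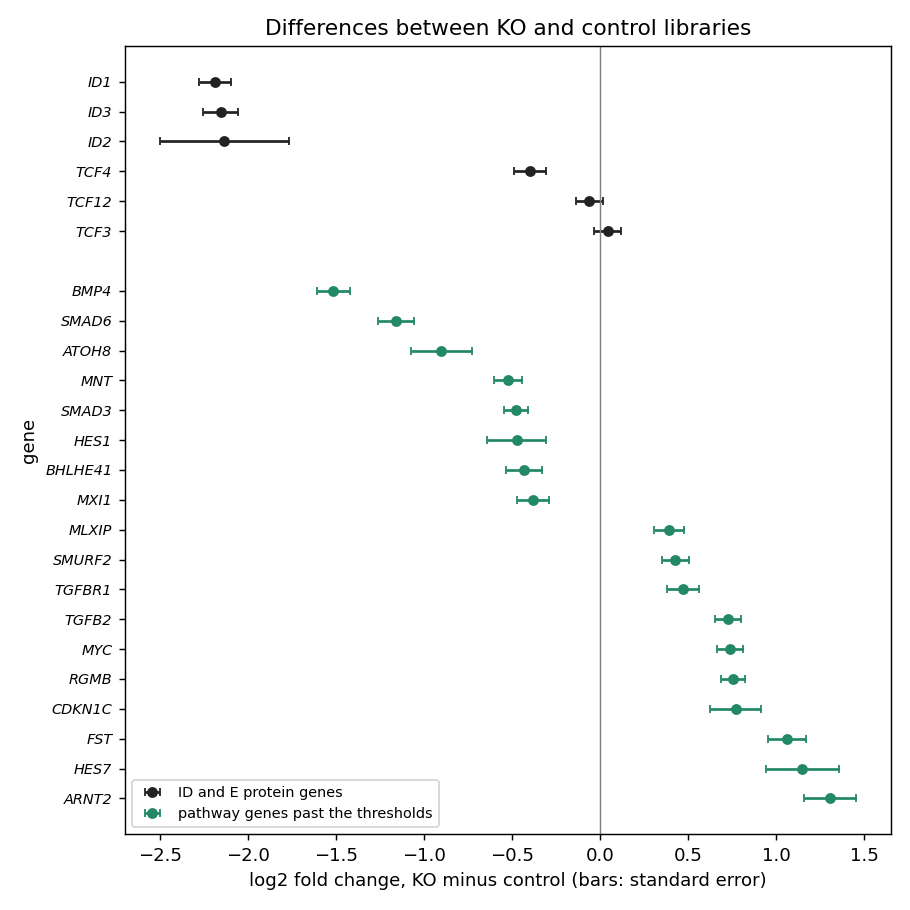
Log2 fold change (KO minus control, edgeR) with its standard error as a bar, for the 6 tested members (black) and 18 of the 20 pathway genes that were called (green). ID1, ID2 and ID3 lie near -2.2, to the left of the 18 pathway genes plotted, and ID2 has the widest bar of the members.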

How the data were processed

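The authors deposited a table of raw read counts per gene for 6 libraries. Paired-end reads of libraries made with a KAPA mRNA kit were, per the labels and the study's methods, aligned to hg19 with STAR and assigned to GENCODE genes with featureCounts. Tool versions and the settings for strand and multi-mapped reads are not given in the sources used here. Groups came from the sample titles, and 0 columns belonged to other samples. Coordinates and exon lengths were those of GENCODE for GRCh37, in which 55538 gene identifiers (96.05%) were found. That annotation is a later release than the one on which the reads were counted, so its exon lengths may differ.

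Genes passing edgeR's filterByExpr were tested with edgeR 4.0.16 (R 4.3.3) by robust quasi-likelihood F tests with TMM factors and Benjamini-Hochberg adjustment over all 15647 genes. A call needed an adjusted p under 0.05 and a fold over 1.3. CPM used TMM-scaled library sizes. SE is the absolute log2 fold change divided by the square root of F. The scripts were tested on simulated data. Alternatives were RLE factors, library size alone, no filter, a filter at a mean of 50 counts, DESeq2 1.42.0, the replicate block, other fold thresholds and leaving out each library. Likeness used log2(CPM + 0.5).

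Named were the members, FOXC1, up to 5 called genes per list with the smallest p, the 3 nearest genes by likeness, overlapping and flanking genes and the leading markers. Genes named although not called, to show the receptors, SMADs, CDK inhibitors and other roles, were chosen after their values were seen. Of the called pathway genes, 2 are counted but not reported here by name. Members and lists were chosen with earlier results of these data known. Promoter sequences came from RefSeq.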

Additional observations from a re-analysis of the deposited data

How the results depend on the processing

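Of 120 main values recomputed under the alternatives, 112 stayed within 1.5 times (counts) or within the spread between replicates (log2 changes). Without a fold threshold, 2233 genes were called lower and 2372 higher, and 20 pathway genes lower and 20 higher. With a fold over 2, these were 321 and 316 genes, and 3 and 3 pathway genes. Leaving out 1 library at a time gave 1201 to 1408 genes lower, 1124 to 1231 higher, 3 to 4 members lower, 7 to 11 pathway genes lower and 10 to 12 higher, and an ID median log2 fold change of -2.24 to -2.07. The summed E protein change ranged from -0.025 to 0.030, so its sign is not determined. With a mean of at least 50 counts, ID2 was not fitted and 3 members were called lower. Among named genes other than the members, a call was lost in 19 fits, all of HES1, MLXIP, MXI1, E2F2, SMURF2 or TGFBR1. Of the members, TCF4 was under the fold threshold of 1.3 in 2 fits (without control replicate 1, -0.38, and without KO replicate 2, -0.37), and ID2 was at -2.51 without KO replicate 3. No pairing by replicate number was seen (correlations of same-numbered deviations -0.040, -0.13 and 0.073, and 0 libraries correlated best with their own number). With 3 libraries per group, this check cannot exclude a pairing, and the sources used here did not state one. With the replicate block, 1351 genes were called lower and 1200 higher, 4 members lower, and 9 pathway genes lower and 11 higher. Depth limits ID2 and ID4, which had 33 reads or fewer in every library.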

Other observations

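A few listed genes with low counts had more reads in every KO library than in any control library. MYCN, a bHLH zipper gene that did not pass the filter on low counts, had 0, 0 and 0 reads in control and 3, 11 and 6 in KO. CDH5, an endothelial cadherin gene counted above among the markers that rose, had 0, 0 and 1 reads in control and 18, 18 and 26 in KO. PTPRC, a blood cell marker, had 3, 3 and 4 reads in control and 8, 6 and 9 in KO. These 3 genes were singled out after their values were seen. Of all tested genes, 20.5% had every KO value above every control value. Other listed genes with low counts went the other way. HEY2 had 3, 8 and 3 reads in control and 1, 2 and 1 in KO, and TAL2 had 2, 2 and 1 against 0, 0 and 0. For the blood and endothelial markers CD68 and VWF the groups overlapped.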
